A study of Mus musculus with 18 samples.

Results

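The 40 genes described here encode the enzymes, carriers and regulators of fatty acid oxidation and ketone body synthesis. They were taken by symbol from a list of names. No measured value entered the rule, but the list was chosen with earlier results of these data known. All 40 were found among the 21441 genes of the liver table and of the macrophage table. They fall into 8 roles: the carnitine shuttle, mitochondrial beta-oxidation, electron transfer from acyl-CoA dehydrogenases, peroxisomal beta-oxidation and proliferation, acyl-CoA thioesterases, fatty acid uptake, binding and activation, ketone body enzymes, and regulators with PPARalpha-responsive genes.

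Fatty acids enter the cell, are bound by small carrier proteins and are joined to coenzyme A before they can be burned. Long chains cross into mitochondria as carnitine esters and are shortened there by repeated rounds of dehydrogenation, hydration, a further dehydrogenation and thiolytic cleavage, while peroxisomes shorten the very long and branched chains. In the liver much of the acetyl-CoA becomes ketone bodies, and the nuclear receptor PPARalpha, which is activated by fatty acids and by fasting, is the best known regulator of these genes there.

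RNA-seq measured 9 liver libraries, from 9 mice per the study, and 9 libraries of RAW264.7, a macrophage-like mouse cell line. Both sets had 3 libraries each for control, LPS and LPS+MIC-1. LPS, a lipid with sugar chains from the wall of E. coli, sets off inflammation through Toll-like receptors, and MIC-1 is moringa isothiocyanate-1, an isothiocyanate from seeds of Moringa oleifera. The livers came from male C57BL/6 mice; the LPS mice received 10 mg/kg LPS into the peritoneum after vehicle by gavage, the LPS+MIC-1 mice received the same LPS after 80 mg/kg MIC-1 by gavage for 3 days, and the control mice received vehicle and saline. All mice were killed 16 h after the injection. The macrophage cultures received solvent, LPS, or LPS with 10 µM MIC-1, while the sample labels repeat the mg/kg doses of the mice and the C57BL/6 strain for these cultures. MIC-1 without LPS was not among the groups. RAW264.7 is a single transformed line, so its libraries are repeat cultures at most, and nothing shows that they came from separate cultures. The p-values then measure only the spread between these libraries, which may be technical.

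The nuclear receptor PPARalpha binds DNA at direct repeats of the hexamer AGGTCA with a single base of any kind between the copies. RefSeq (GRCm38.p6) gave the bases from 250 before to 50 after the start for 34 of the 40 genes by symbol; Decr1, Vnn1, Hsd17b4, Crat, Acaa2 and Acat1 had no entry. On either strand and with at most 2 mismatches, 6 of these 34 windows held the element (17.6%), against 4.40% of the windows of 27025 genes. With at most 1 mismatch the shares were 5.88% and 0.644%, and the single hexamer AGGTCA, which is part of that element, stood in 26.5% and 18.1% of the windows. These are matches of letters and not binding sites. The 6 matches with at most 2 mismatches are shown. In liver Fabp1 fell with LPS, and the LPS values of Acot12, Acot4, Echs1, Etfa and Slc25a20 did not pass the test. A missed threshold does not show that a gene stayed as it was, and no test compares these genes. Each match is printed on the strand of its gene with 8 bases on each side, and the capitals mark the element.
Fabp1, chr6:71199804-71199832, 1 mismatch: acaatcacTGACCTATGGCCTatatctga
Acot12, chr13:91741403-91741431, 1 mismatch: taggacccTGACCTCTCACCTcctaagca
Acot4, chr12:84038358-84038386, 2 mismatches: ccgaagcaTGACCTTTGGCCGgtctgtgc
Echs1, chr7:140116484-140116512, 2 mismatches: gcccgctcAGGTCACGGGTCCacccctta
Etfa, chr9:55512300-55512328, 2 mismatches: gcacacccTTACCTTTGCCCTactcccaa
Slc25a20, chr9:108662134-108662162, 2 mismatches: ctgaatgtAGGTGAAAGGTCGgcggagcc
The element of Fabp1 began 67 bases before the start of the gene.

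Acaa1a and Acaa1b encode closely related peroxisomal thiolases, lie 184200 bases apart on chromosome 9 (mm9) and moved in opposite directions in the liver. Their 250 bases before the start (RefSeq, GRCm38.p6) are shown for that reason, on the strand of each gene. The capitals mark the best local alignment between both windows, 48 bases of Acaa1a and 44 of Acaa1b with 33 identical bases.
Acaa1a, chr9:119341044-119341293: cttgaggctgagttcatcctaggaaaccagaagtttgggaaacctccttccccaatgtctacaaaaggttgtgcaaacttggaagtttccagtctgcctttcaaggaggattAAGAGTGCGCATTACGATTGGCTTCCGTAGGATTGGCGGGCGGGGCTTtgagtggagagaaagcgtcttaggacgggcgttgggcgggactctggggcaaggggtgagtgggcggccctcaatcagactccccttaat
Acaa1b, chr9:119157094-119157343: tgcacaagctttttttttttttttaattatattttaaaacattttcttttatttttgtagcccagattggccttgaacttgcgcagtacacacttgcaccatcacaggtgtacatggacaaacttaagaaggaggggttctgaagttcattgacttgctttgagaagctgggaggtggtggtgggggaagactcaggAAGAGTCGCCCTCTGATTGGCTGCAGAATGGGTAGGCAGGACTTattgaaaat
Their transcripts shared 758 stretches of 31 bases, 41.6% of those of Acaa1a and 45.7% of those of Acaa1b, so reads from the shared stretches cannot be assigned to either gene by sequence alone. Acot1 and Acot2 shared 645 such stretches, 42.0% and 29.9% of theirs. Values of these genes are uncertain to that extent.

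Values are FPKM, read fragments scaled to transcript length and library size, as deposited. Libraries are numbered by their order in the table within each group, since the columns carry no replicate number. The depth, estimated from the steps between low FPKM values and given in megareads (M), was 10.1, 4.42 and 4.34 M reads in the liver controls, 11.4 to 17.9 M in the other liver libraries and 17.3 to 22.3 M in macrophages. Libraries 1 and 3 were close in every group but the liver controls, where 2 and 3 were close. Over genes with 500 to 2000 estimated reads the squared differences of such pairs were 1.86 to 6.91 times the sampling variance, and those of the other pairs within a group were 8.59 to 92.6 times it. The liver LPS+MIC-1 pair, at 2.54 times, was about as close as the macrophage pairs. The study describes separate mice, and whether this pair came from separate mice was not tested. Liver p-values may therefore also rest in part on the spread of repeat libraries. Liver control 1 stood 71.1 and 80.5 times the sampling variance from the other controls. Liver LPS 2 stood 74.3 and 78.5 times the sampling variance from LPS 1 and LPS 3. The macrophage library labelled LPS 2 stood against its label: it differed from control 2 by 2.23 times the sampling variance, about as close pairs do, and from LPS 1 and LPS 3 by 91.3 and 92.6 times. Its 12 LPS response genes summed to 783 FPKM, against 407 to 771 in the controls and 28559 and 29344 in LPS 1 and LPS 3. Ccl5 made up most of the latter sums, with 24673 and 25371 FPKM, against 115 in LPS 2. Some of these genes were lower in LPS 1 and LPS 3 than in the controls. Among them Cxcl10 had 25.1 and 25.7 FPKM there, 64.3 to 70.1 in controls and 71.6 in LPS 2. Macrophage comparisons are therefore given with all 9 libraries and with 8. Hepatocyte markers summed to at least 53644 FPKM in every liver library and to at most 37.6 in macrophages, and macrophage markers to 13330 or more in RAW264.7, where 5 of 6 Kupffer cell markers were under 0.1 FPKM. In liver, macrophage markers (12 of 16 listed genes found) summed to 90.5 to 123 in controls, 414 to 874 with LPS and 339 to 674 with LPS+MIC-1, and neutrophil markers (12 of 13) to 37.7 to 53.5, 356 to 454 and 194 to 468. Single genes weighed on these sums. Cd14 had 569, 84.2 and 552 FPKM in LPS livers, and 56.7, 407 and 61.4 in LPS+MIC-1 livers. S100a8 had 228, 269 and 286 FPKM in LPS livers. In the limma test of LPS against control (described below), 5 of 10 tested macrophage markers rose and 0 fell. Of 9 neutrophil markers 8 rose and 1, Cxcr2, fell, and of 6 Kupffer cell markers 1 rose and 2 fell. Hepatocyte marker sums overlapped between the groups, 53644 to 110607, 69670 to 73161 and 62750 to 93675. In such bulk samples fewer cells of a type and less RNA per cell cannot be told apart, and the part of these cells in the results was not tested.

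Genes with a mean FPKM above 1 in a table were tested with limma on log2(FPKM + 0.5), with all 3 groups in 1 fit. A gene was called, and is said to have risen or fallen, at a Benjamini-Hochberg adjusted p below 0.05 over all tested genes. Log2FC values are differences on this log2(FPKM + 0.5) scale, which understates the change of low genes, and ± gives the standard error. An exact permutation test of 3 against 3 libraries cannot give a two-sided p below 0.1, so for single genes only the overlap of the groups is added.

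In untreated samples 34 of the 40 genes had a higher mean FPKM in liver than in macrophages and 6 a lower one. Both tables were scaled separately, so these levels stand side by side without a test. Fabp1, the liver fatty acid-binding protein, was the highest with 7764 ± 2411 FPKM (SD, n = 3) in liver controls, against 0.588 ± 0.333 in macrophage controls. Slc27a2, a very long chain acyl-CoA synthetase and fatty acid transporter, had 461 ± 103 FPKM in liver controls and 0.0276 ± 0.0322 in macrophage controls. The 6 genes that were higher in macrophages were Acaa1a, Acsl5, Acot8, Hadhb, Acads and Acot1. Acsl5, a long chain acyl-CoA synthetase, had 90.3 ± 2.91 FPKM in macrophage controls and 28.0 ± 14.9 in liver controls. In the macrophage controls 9 of the 40 genes had a mean under 0.1 FPKM, among them Ppara, Slc27a2, Ehhadh, Decr1, Acot12 and Pdk4. The filter left 39 genes in liver, all but Acot3, and 29 in macrophages, and a gene low in all groups could not pass it.

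**Figure D1:**
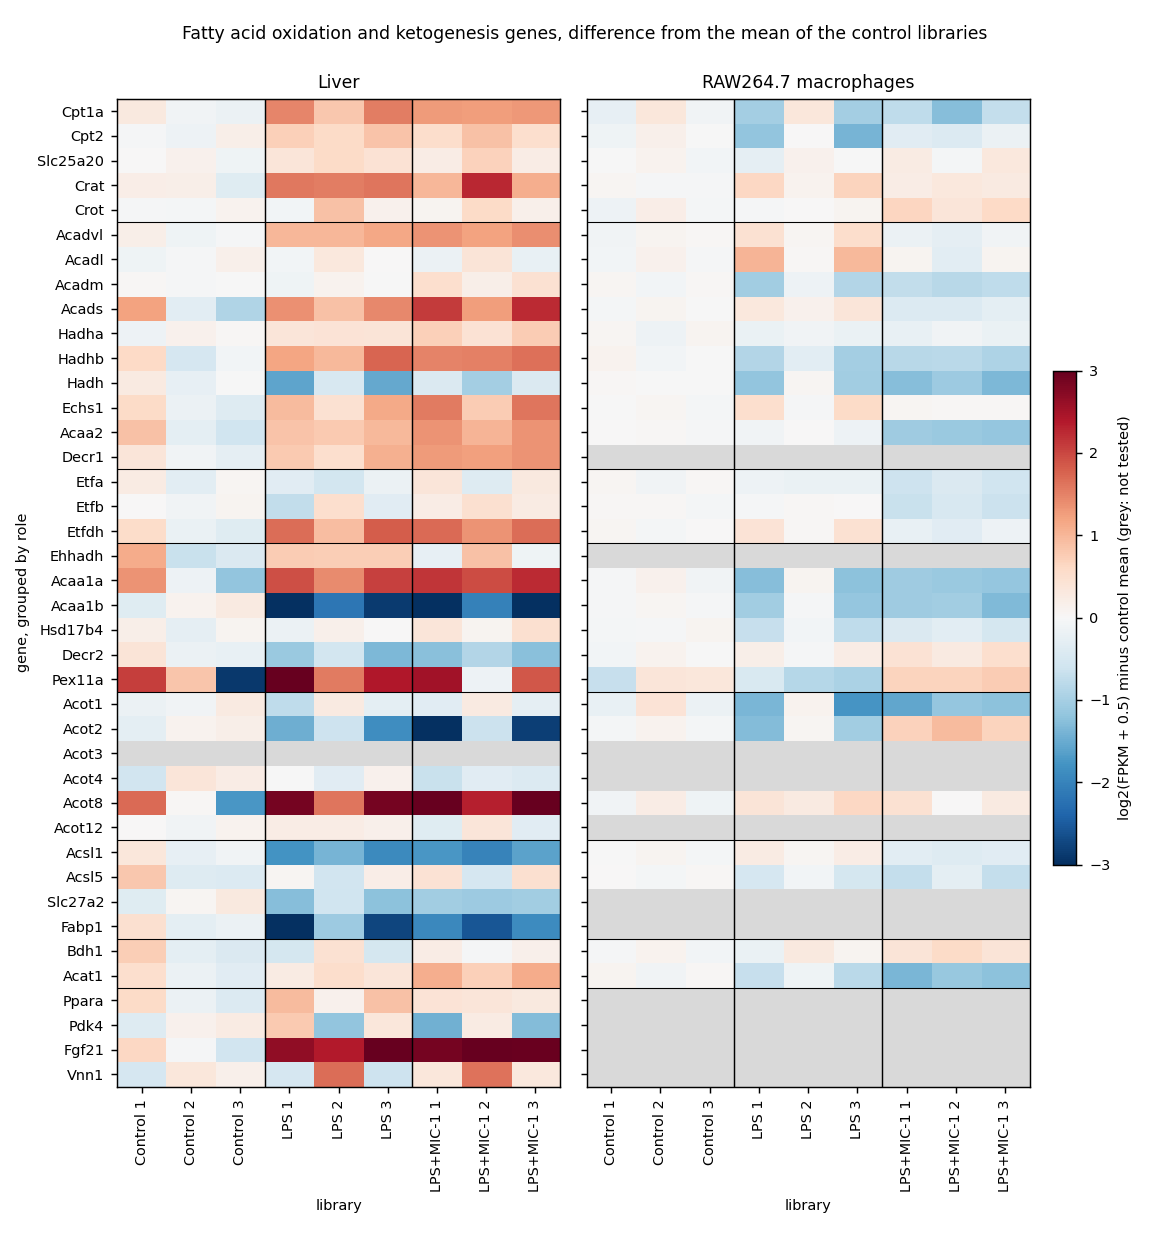
Difference of each library from the mean of the control libraries, in log2(FPKM + 0.5), for the 40 genes grouped by role (rows) in 9 liver and 9 macrophage libraries (columns); colours end at 3 in both directions and grey marks genes that were not tested. Acaa1b, Fabp1 and Acsl1 are lower and Fgf21 and Cpt1a higher in all 6 liver libraries that received LPS, and macrophage library LPS 2 has the colours of the controls.

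The first liver comparison asks how fatty acid oxidation genes stand after LPS. With LPS 10 of the 39 tested genes rose (19.2% of all 10147 tested genes) and 6 fell (15.5%). Of 5 carnitine shuttle genes 3 rose, Cpt1a, Cpt2 and Crat, and of 10 mitochondrial beta-oxidation genes Acadvl, Hadhb and Decr1 rose and Hadh fell. Of 4 genes of uptake, binding and activation 3 fell, Fabp1, Acsl1 and Slc27a2. The median Log2FC of the 39 genes was 0.31 and that of all tested genes 0.15, with 22 of the 39 genes above the latter and 17 below. The libraries of both groups did not overlap for 12 genes higher and 7 lower, against 24.2% and 20.8% of all genes. The deposited scaling matters here: with every library scaled to the same FPKM sum the median of all genes moved to -0.18, 7 of the 39 genes rose and 7 fell, while 1119 of all genes rose and 2473 fell in place of 1947 and 1573. Single libraries decided part of the calls: without LPS 3, 5 genes rose and 2 fell (754 and 642 of all genes), without LPS 1, 6 rose and 3 fell (914 and 750), without control 2, 6 rose and 5 fell (1101 and 843), and without control 3, 7 rose and 4 fell (1066 and 902). Acaa1b, Acadvl, Acsl1, Cpt1a, Crat, Etfdh and Fgf21 passed in each of these fits. With libraries 1 and 3 of each group averaged, a setting added once the data had been seen, Fgf21 alone passed, and 149 of all genes rose and 82 fell; the calls of the other 15 genes, Acaa1b, Acadvl, Acsl1, Cpt1a, Crat and Etfdh among them, were lost. That setting also joined controls 1 and 3, which stood 80.5 times the sampling variance apart and were not the close pair. At an adjusted p below 0.01 and an absolute Log2FC above 1, the rule the study used for macrophages, 4 genes rose and 2 fell (6.14% and 4.72% of all genes).

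In the carnitine shuttle 3 of 5 genes rose and none fell. Cpt1a, which joins long chain fatty acids to carnitine at the outer mitochondrial membrane, had 25.6, 19.3 and 18.4 FPKM in controls, 58.8, 36.9 and 61.1 after LPS alone and 51.1, 50.3 and 52.5 with LPS+MIC-1. All 6 libraries with LPS lay above the 3 controls, and the Log2FC of LPS against control was 1.27 ± 0.23 (limma adjusted p = 0.00625). Cpt2, which returns the chain to coenzyme A on the inner side, had 45.1, 42.1 and 52.8 FPKM in controls and 76.5, 69.1 and 84.3 with LPS (Log2FC 0.71). Crat, carnitine acetyltransferase, had 8.38, 8.21 and 5.52 FPKM in controls and 22.7, 21.9 and 23.3 with LPS (Log2FC 1.57). Neither gene's LPS libraries overlapped its controls, but the call of Cpt2 was lost when FPKM were scaled to the same sum. Slc25a20, the carrier of acylcarnitines through the inner membrane, lay above the controls in all LPS libraries without passing the test (Log2FC 0.45, 95% confidence interval 0.03 to 0.87). Crot, the octanoyltransferase of peroxisomes, had a Log2FC of 0.31.

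Of 10 mitochondrial beta-oxidation genes 3 rose and 1 fell. The acyl-CoA dehydrogenases, which take chains of different length, differed among themselves. Acadvl, for very long chains, had 76.8, 61.8 and 66.3 FPKM in controls and 136, 135 and 153 with LPS, and rose by a Log2FC of 1.05 ± 0.16 (limma adjusted p = 0.00398). Acadm, for medium chains, had 78.1, 73.9 and 75.6 FPKM in controls and 69.6, 81.6 and 75.6 with LPS. Those groups overlapped, and the interval of the Acadm difference, -0.37 to 0.36, was narrow for this tissue. Acadl, for long chains, had a Log2FC of 0.09 (-0.41 to 0.58). Acads, for short chains, had 39.4, 13.4 and 8.75 FPKM in controls and 43.8, 31.1 and 46.4 with LPS, so that control 1 overlapped the LPS libraries and the test was not passed (Log2FC 1.23).

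Hadha and Hadhb encode both subunits of the trifunctional protein, which carries out the later steps on long chains, and their genes stand head to head on chromosome 5, 85 bases apart (mm9). Hadhb had 30.1, 13.7 and 18.8 FPKM in controls and 45.9, 39.2 and 68.3 with LPS (Log2FC 1.30 ± 0.31). Hadha had 62.9, 75.7 and 71.3 in controls and 90.0, 92.3 and 91.2 with LPS (Log2FC 0.38 ± 0.16, limma adjusted p = 0.0972), higher in every LPS library but short of the threshold. Hadh, the dehydrogenase of the short chain hydroxyacyl step, was the only gene of this role that fell: it had 137, 95.1 and 112 FPKM in controls and 37.4, 80.6 and 39.0 with LPS (Log2FC -1.20). LPS 2 lay apart from the other LPS libraries but still below the controls. Decr1, the dienoyl-CoA reductase for unsaturated chains, rose from 27.4, 19.7 and 17.3 to 36.5, 30.3 and 44.5 FPKM (Log2FC 0.78), a call that was lost with FPKM scaled to the same sum. Acaa2, the mitochondrial thiolase, and Echs1, the short chain hydratase, did not pass the test, with Log2FC of 0.87 and 0.85; for Acaa2 the controls were spread from 90.5 to 249 FPKM. Without control 1, the library far from the other controls, Acaa2, Acads, Echs1, Acat1, Ehhadh and Ppara passed as well and Hadh no longer did. Without LPS 2, which stood far from the other LPS libraries, all 16 calls were kept. Echs1 and Ppara, higher, and Etfb, lower, passed in addition. The calls over all genes in those fits are not set beside these, so this is no result about these genes alone.

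**Figure D2:**
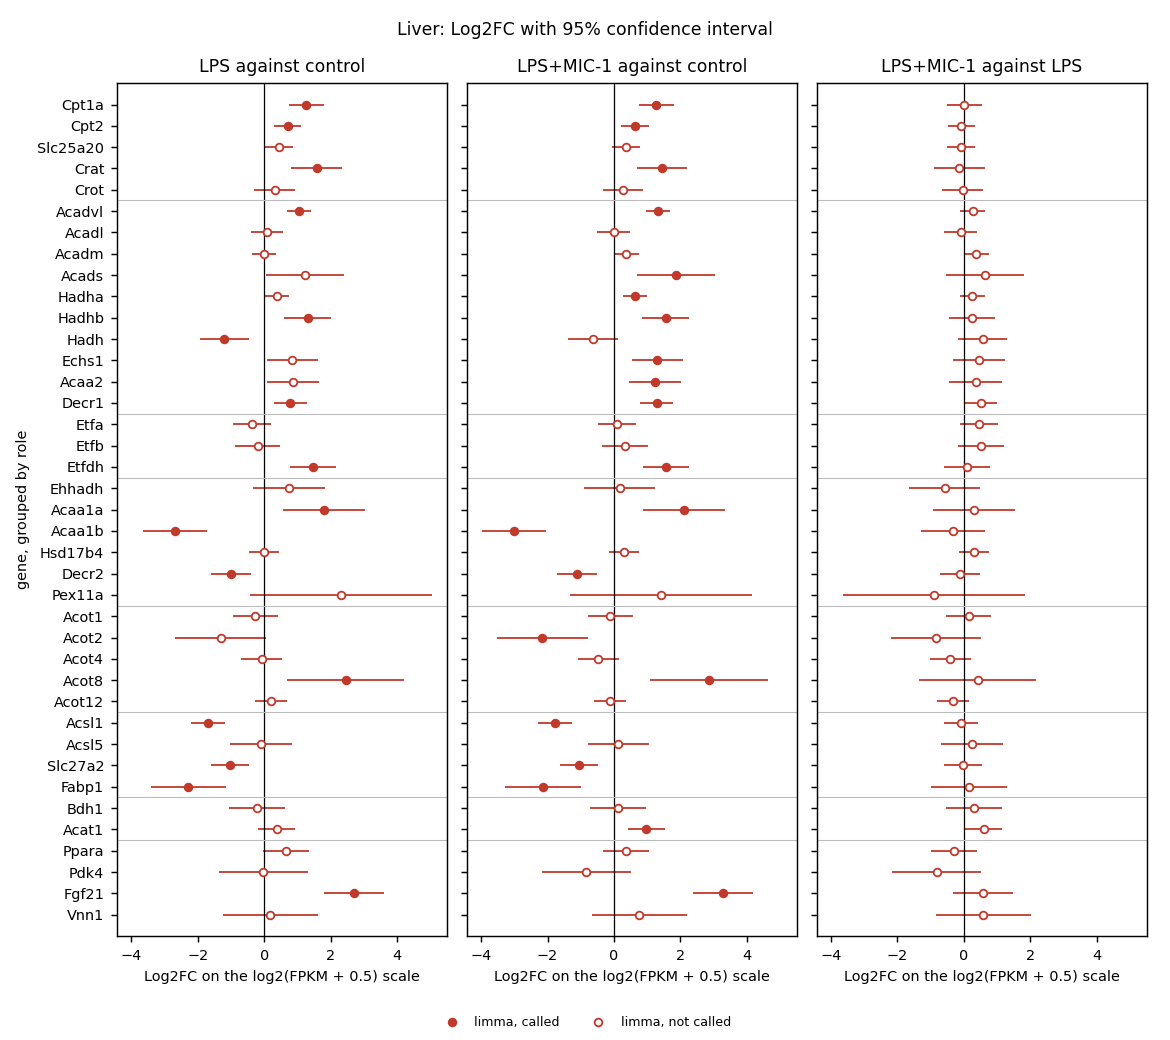
Log2FC (x axis, on the log2(FPKM + 0.5) scale) with 95% confidence interval from limma for the 39 tested genes in liver (y axis, grouped by role) in 3 comparisons; filled points passed an adjusted p below 0.05 and open points did not. The intervals of LPS+MIC-1 against LPS have open points only, while LPS against control has 16 filled points and LPS+MIC-1 against control 21.

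Electrons from the acyl-CoA dehydrogenases pass through the flavoprotein made of Etfa and Etfb to Etfdh, which hands them to ubiquinone. Etfdh had 27.8, 16.5 and 14.7 FPKM in liver controls and 61.6, 36.6 and 67.4 with LPS, and rose by a Log2FC of 1.47 ± 0.31. Etfa and Etfb had overlapping libraries and Log2FC of -0.36 and -0.19.

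Among 6 peroxisomal genes 1 rose and 2 fell. Acaa1b had 516, 710.1 and 794 FPKM in controls and 81.4, 147 and 89.9 with LPS, a Log2FC of -2.69 ± 0.42 (limma adjusted p = 0.00414) and the largest fall of the 39 genes. Its neighbour Acaa1a had 56.9, 19.8 and 9.53 FPKM in controls and 86.6, 59.9 and 94.1 with LPS, and rose by a Log2FC of 1.80 ± 0.54. In every control library Acaa1b stood above Acaa1a, and in LPS 1 and LPS 3 both had like levels, 81.4 against 86.6 and 89.9 against 94.1 FPKM. Decr2, the peroxisomal dienoyl-CoA reductase, fell from 105, 70.8 and 68.4 to 36.5, 54.5 and 31.2 FPKM, or by 1.00 on the log2 scale. Hsd17b4 and Ehhadh, both bifunctional enzymes of the peroxisome, did not pass the test; Hsd17b4 had a Log2FC of -0.01 and Ehhadh of 0.75. Pex11a, which takes part in the division of peroxisomes, was too variable to judge: it had 15.1 and 6.08 FPKM in controls 1 and 2 and was listed at 0 in control 3, against 28.8, 10.5 and 19.0 with LPS (interval -0.43 to 5.05).

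Acyl-CoA thioesterases split the ester again, and 1 of 5 tested genes rose. Acot8, a peroxisomal member, had 4.98 and 1.22 FPKM in controls 1 and 2, was listed at 0 in control 3, and had 11.8, 4.57 and 11.7 with LPS (Log2FC 2.45, limma adjusted p = 0.0398). The groups of Acot8 overlapped and the call was lost with FPKM scaled to the same sum and after removal of the transcript length and GC trend. Acot2, the mitochondrial member, lay below the controls in every LPS library, 5.01, 9.42 and 3.64 FPKM against 11.9, 15.9 and 16.5, and did not pass the test (Log2FC -1.31). Acot1, Acot4 and Acot12 had Log2FC between -0.27 and 0.20. Acot3 stayed at or below 2.14 FPKM in every liver library.

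Of the 4 genes of uptake, binding and activation 3 fell. Fabp1 had 10530.4, 6111 and 6652 FPKM in controls and 938, 3521 and 1124 with LPS, a Log2FC of -2.28 ± 0.50 (limma adjusted p = 0.0115). The LPS libraries all lay below the controls, with LPS 2 nearest to them. Acsl1, the main long chain acyl-CoA synthetase of liver, had 228, 153 and 169 FPKM in controls and 51.8, 68.4 and 47.3 with LPS, a Log2FC of -1.70 ± 0.23 (limma adjusted p = 0.00226). Slc27a2 had 353, 474 and 557 FPKM in controls and 187, 300.3 and 194 with LPS (Log2FC -1.03). These 3 genes fell under the scaling to the same sum as well. Acsl5 had overlapping groups and a Log2FC of -0.10.

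Neither ketone body enzyme passed the test: Bdh1, which turns acetoacetate into hydroxybutyrate, had a Log2FC of -0.20 (-1.05 to 0.64), and Acat1, which joins acetyl-CoA units, of 0.38 (-0.18 to 0.94). Among the regulators Fgf21, a liver hormone induced by PPARalpha in fasting, rose from a low level: it had 0.638 and 0.221 FPKM in controls 1 and 2, was listed at 0 in control 3, and had 4.22, 3.39 and 5.57 with LPS (Log2FC 2.70 ± 0.40, limma adjusted p = 0.00324). Its estimated reads were 4.83 and 0.933 in controls 1 and 2 and 29.2 to 65.4 with LPS, so its fold rests on few reads in the controls. Ppara itself had 16.1, 9.48 and 7.96 FPKM in controls and 21.1, 11.8 and 20.1 with LPS and did not pass the test (Log2FC 0.65, -0.03 to 1.34). Pdk4, which restrains pyruvate oxidation, and Vnn1, a pantetheinase, had intervals that reached beyond 1 in both directions, -1.36 to 1.32 and -1.25 to 1.61.

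**Figure D3:**
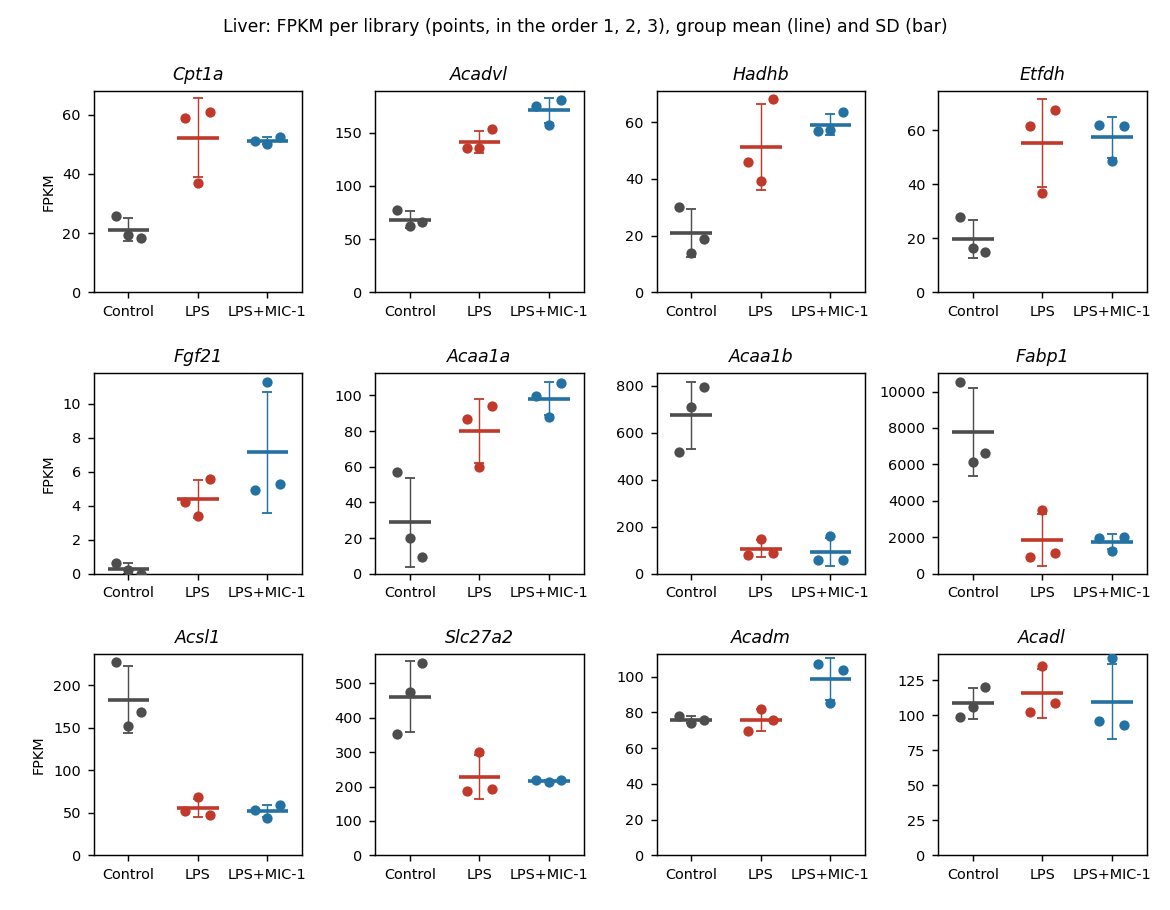
FPKM of 12 genes in the 9 liver libraries (y axis from 0, points in the order of libraries 1, 2 and 3 within each group on the x axis), with the group mean as a line and the SD as a bar. Cpt1a, Acadvl, Hadhb, Etfdh, Fgf21 and Acaa1a are above the controls in all LPS libraries, Acaa1b, Fabp1, Acsl1 and Slc27a2 are below, and Acadm and Acadl overlap.

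Other genes of the pathway, from a list of 47 names of which 40 were tested in liver, included 7 that rose and 13 that fell with LPS (19.2% and 15.5% of all genes), with a median Log2FC of -0.37. No test compares these lists with each other or with all genes. Of these, Acox2 (Log2FC 1.75), an oxidase of branched chains, the monocarboxylate carrier Slc16a1 (2.35) and the fatty acid transporter Slc27a4 (1.74) rose with the smallest p. Nudt7 (-2.50), a coenzyme A hydrolase of peroxisomes, Acsl3 (-1.24) and Acsm5 (-2.95), both acyl-CoA synthetases, fell with the smallest p. Of 29 further regulators and PPARalpha-responsive genes 8 rose and 7 fell (median 0.01), beside the same shares of all genes. The fatty acid-binding protein Fabp4 (3.67), Angptl4 (1.77), an inhibitor of lipoprotein lipase, and G0s2 (1.10), an inhibitor of triglyceride lipase, rose with the smallest p, and the coactivator Ppargc1b (-2.64), Aldh3a2 (-2.55), a fatty aldehyde dehydrogenase, and Cyp4a12a (-1.27), a fatty acid hydroxylase, fell.

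The comparison of LPS+MIC-1 with LPS asks what MIC-1 changed in livers that had received LPS. In liver 0 of the 39 genes passed the limma threshold, as did 0.00% of all 10147 tested genes. At an unadjusted p below 0.05 there were 3 of the 39 genes and 364 of all genes. The 3 genes were Acadm, Acat1 and Decr1, all higher with MIC-1. Acadm had 107, 85.3 and 104 FPKM with LPS+MIC-1 against 69.6, 81.6 and 75.6 with LPS (Log2FC 0.38, 0.01 to 0.75). Acat1 had 98.4, 75.5 and 100.4 FPKM against 54.9, 66.1 and 59.0 (Log2FC 0.60, 0.04 to 1.16), and Decr1 had 52.2, 50.5 and 54.4 against 36.5, 30.3 and 44.5 (Log2FC 0.51, 0.01 to 1.00). In all 3 the libraries of both groups did not overlap, which held for 6 genes higher and 1 lower of the 39 (5.10% and 4.64% of all genes). The others were Acaa2, Acadvl and Hadha, higher, and Acot4, lower. Acaa2 had 346, 276 and 346 FPKM against 246, 235 and 269.7. Without LPS 2, Acadm (0.43) and Acat1 (0.67) stayed at an unadjusted p below 0.05, and Decr1 (0.37) did not. Etfb (0.87), Hadh (0.92) and Vnn1 (1.33), higher, and Pdk4 (-1.39), lower, came under it in that fit. None passed the adjusted threshold, and the unadjusted count over all genes in that fit is not set beside these.

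A missed threshold does not show that MIC-1 left these genes as they were. The 95% interval of the difference was inside -1 to 1 for 18 of the 39 genes, and the intervals reached a median of 0.68 to either side of the value. Cpt1a had an interval of -0.52 to 0.53, Acsl1 of -0.60 to 0.43 and Acadvl of -0.10 to 0.65, whereas Fabp1 had one of -0.99 to 1.29 and Acot2 of -2.20 to 0.52. Mitochondrial beta-oxidation genes had a positive difference in 9 of 10, with a median Log2FC of 0.37, against 4960 of 10147 genes and a median of -0.01. The 14 hepatocyte markers had a positive difference in 14 of 14, with a median of 0.27, and the 40 further pathway genes in 27 of 40, with a median of 0.21; the part of these markers in the result was not tested. LPS+MIC-1 libraries 1 and 3, a close pair, were the higher ones in Acadm, Echs1, Acads and Hadha. With FPKM scaled to the same sum the median of all genes was -0.26 and 22 of the 39 genes lay above it.

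Against control, the LPS+MIC-1 livers had 15 of the 39 genes higher (20.1% of all genes rose) and 6 lower (16.3% fell); the control libraries are those of the LPS comparison. The median Log2FC was 0.36 against 0.15 for all genes, and 18 genes lay above and 7 below all controls (30.5% and 24.1% of all genes). With FPKM scaled to the same sum 8 rose and 9 fell, the median of all genes was -0.43, and 733 of all genes rose and 3443 fell in place of 2038 and 1654. Of the 21 calls, 11 were left without LPS+MIC-1 library 1, 11 without library 3 and 13 without control 2. The calls over all genes in these fits are not set beside these, so this is no result about these genes alone. At an adjusted p below 0.01 and an absolute Log2FC above 1, 6 rose (7.14% of all genes) and 2 fell (6.37%). Of the mitochondrial beta-oxidation genes 7 of 10 rose: Acadvl (Log2FC 1.32), Acads (1.86), Hadha (0.63), Hadhb (1.55), Echs1 (1.30), Acaa2 (1.23) and Decr1 (1.29). Echs1 had 113, 64.8 and 117 FPKM with LPS+MIC-1 against 57.3, 33.4 and 28.8 in controls. In the carnitine shuttle Cpt1a (1.28), Cpt2 (0.63) and Crat (1.44) rose; Cpt2 and Hadha changed sign under the scaling to the same sum, to a Log2FC of -0.02 each. Etfdh rose by 1.57 and Acat1 by 0.97. Acaa1a (2.12), Acot8 (2.86) and Fgf21 (3.27) rose as well, and Fgf21 had 4.92, 11.3 and 5.28 FPKM.

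The genes that fell in LPS+MIC-1 livers were Acaa1b (-3.01), Fabp1 (-2.13), Acot2 (-2.16), Acsl1 (-1.78), Decr2 (-1.13) and Slc27a2 (-1.06). Acaa1b had 57.2, 161 and 59.0 FPKM against at least 516 in the controls, and Fabp1 had 1968, 1275 and 2022. Acot2 had 1.41, 9.11 and 1.63 FPKM, with library 2 nearest to the controls. Hadh was below all controls, 83.8, 55.2 and 83.2 FPKM, and did not pass the test (Log2FC -0.63). Of the 40 further pathway genes 7 rose and 8 fell (20.1% and 16.3% of all genes, median -0.07); Acox2 (1.61) and Slc27a4 (1.94) rose and Nudt7 (-2.68), Acad9 (-1.86), an acyl-CoA dehydrogenase that also assembles respiratory complex I, and Cpt1b (-1.81), the muscle form of the carnitine transferase, fell with the smallest p. Of the 29 further regulators 8 rose and 7 fell (the same shares of all genes, median -0.12), with Fabp4 (3.56), Cd36 (1.22), a fatty acid receptor, and Angptl4 (1.50) up and Ppargc1b (-2.75), Cyp4a32 (-1.20) and Aldh3a2 (-2.63) down.

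In RAW264.7 macrophages the first comparison asks what LPS alone changed. With all 9 libraries 0 of the 29 tested genes passed the limma threshold, as did 0.00% of all 9905 tested genes, with 15 of the 29 and 4928 of all genes at an unadjusted p below 0.05. The library labelled LPS 2 was nearer to the control mean than to the mean of LPS 1 and LPS 3 for 25 of the 29 genes and inside the range of the controls for 15. Without it 8 of the 29 genes rose (36.9% of all genes) and 12 fell (38.2%), and the median Log2FC was -0.18 against -0.02 for all genes. The LPS group then consists of a close pair, so its spread may be that of a repeat library. The sign of the rises depends on the deposited scaling. With FPKM scaled to the same sum, the median of all genes moved to -0.65 and that of the 29 genes to -0.85 with 9 libraries, and 0 of the 29 genes were called. With the same sum and LPS 2 left out, an alternative chosen after seeing the data, 0 of the 29 genes rose and 28 fell, 1171 of all genes rose and 7035 fell, and the medians were -1.16 and -0.93. The 12 genes that fell were called lower there as well. Of the 8 that rose, Acadl was at 0.01 and not called, and the other 7 were called lower. Relative to the median of all genes there, -0.93, all 8 lay above it and the 12 lay below it. Differences in the next 2 paragraphs are from the 8 libraries with the deposited scaling unless the same sum is named.

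In the carnitine shuttle Cpt1a and Cpt2 fell with LPS, and Crat rose with the deposited scaling. With the same sum Crat was called lower, yet lay above the median of all genes. Cpt1a had 6.95, 10.8 and 7.78 FPKM in controls, 3.87 in LPS 1 and in LPS 3, and 10.8 in LPS 2 (Log2FC -1.02 without it). Cpt2 had 10.9, 13.5 and 12.0 FPKM in controls, 5.07 and 4.30 in LPS 1 and LPS 3 and 12.1 in LPS 2 (Log2FC -1.28). Crat rose by 0.65 and was lower, at -0.29, with the same sum. The acyl-CoA dehydrogenases differed among themselves. Acadl rose by 1.00 (0.01 with the same sum), with 55.5, 63.5 and 56.8 FPKM in controls, 119 and 116 in LPS 1 and LPS 3 and 59.6 in LPS 2. Acadvl rose by 0.49 and Acads by 0.34, and both were lower with the same sum, at -0.48 and -0.64. Acadm fell by 0.97, from 33.6, 30.3 and 33.0 FPKM to 15.3 and 17.2, with 29.0 in LPS 2.

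Of the later steps Hadh (-1.12) and Hadhb (-0.95) fell, Echs1 rose by 0.54 (-0.44 with the same sum), and Hadha (-0.21) did not pass the test. Acaa1a fell by 1.25, with 110.3, 124 and 105 FPKM in controls, 46.5 and 48.0 in LPS 1 and LPS 3 and 119.9 in LPS 2. Acaa1b (-1.10) fell together with Acaa1a in these cells, from 5.52 to 5.84 FPKM in controls to 2.49 and 2.25. Hsd17b4 (-0.73), the thioesterases Acot1 (-1.57) and Acot2 (-1.17), Acsl5 (-0.52) and Acat1 (-0.75) fell too. Acot8 (0.49), Acsl1 (0.24) and Etfdh (0.43) rose, and were called lower with the same sum, at -0.47, -0.73 and -0.54.

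**Figure D4:**
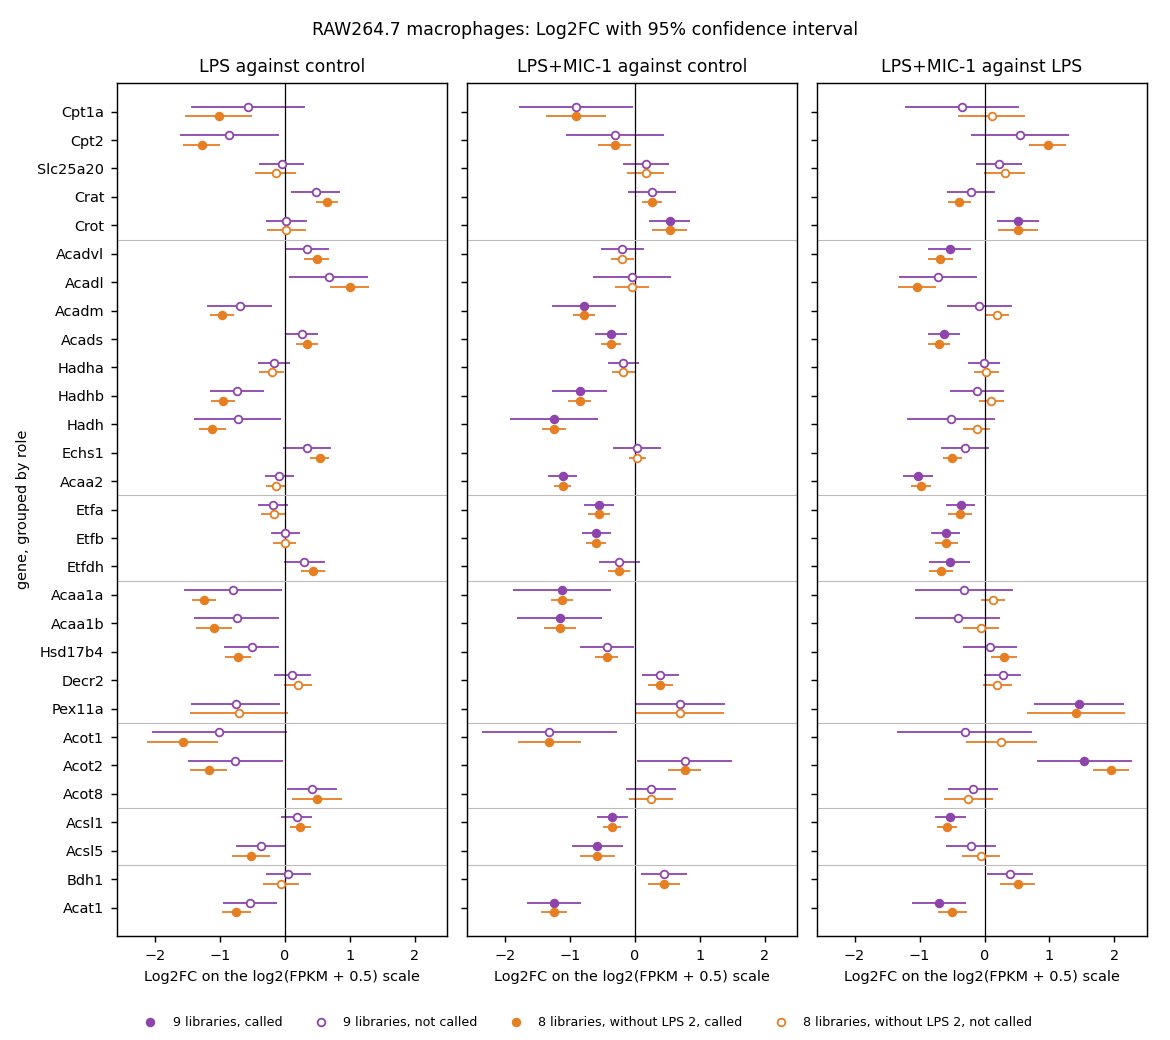
Log2FC (x axis, on the log2(FPKM + 0.5) scale) with 95% confidence interval for the 29 tested genes in macrophages (y axis, grouped by role) in 3 comparisons, fitted with all 9 libraries and with 8 (without LPS 2); filled points passed an adjusted p below 0.05. In LPS against control no point is filled with 9 libraries and 20 are with 8, at the deposited scaling. With FPKM scaled to the same sum and LPS 2 left out, 28 were called. All 28 were lower, and the median of all genes was negative there too.

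The comparison of LPS+MIC-1 with LPS in macrophages asks what MIC-1 added to LPS. With all 9 libraries 3 of the 29 genes rose (10.2% of all genes) and 8 fell (11.4%); the median Log2FC was -0.30 against -0.01 for all genes, and 9 genes lay above the latter and 20 below. Without LPS 2, 6 rose (34.0%) and 11 fell (34.1%), with a median of -0.05, and all 11 genes called with 9 libraries were called again. The scaling moved these counts: the FPKM of LPS 1 and of LPS 3 summed to more than those of the other libraries, which had 557136 to 652486, and with FPKM scaled to the same sum the median of all genes was 0.44, 4 of the 29 genes rose and 0 fell, and 1228 of all genes rose and 354 fell in place of 1011 and 1130. Relative to that median 9 genes again lay above and 20 below. With the same sum and LPS 2 left out, 24 of the 29 genes rose and 1 fell, 6669 of all genes rose and 1040 fell, and the medians of the 29 genes and of all genes were both 0.74. Of the 8 genes that fell, Acaa2 (-0.20) alone remained lower, and the other 7 turned to positive values. With other single libraries left out, 3 to 7 of the 11 calls were left. There were 3 without LPS+MIC-1 library 1 or 3, and 5 without LPS 3. There were 6 without LPS 1, control 1 or control 3, and 7 without control 2 or LPS+MIC-1 library 2. The calls over all genes in these fits are not set beside these, so this is no result about these genes alone. At an adjusted p below 0.01 and an absolute Log2FC above 1, 0 rose (2.06% of all genes) and 1 fell (1.81%).

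Acaa2, the mitochondrial thiolase, had 23.6, 23.8 and 22.6 FPKM in controls, 21.5, 23.5 and 20.8 after LPS alone and 10.9, 10.5 and 10.2 with LPS+MIC-1. The LPS libraries, LPS 2 included, stood at or near the level of the controls, and every LPS+MIC-1 library was lower than every other library. The Log2FC of LPS+MIC-1 against LPS was -1.02 ± 0.10 with 9 libraries (limma adjusted p = 0.000918) and -0.97 with 8, and that against control was -1.11. This call was lost when FPKM were scaled to the same sum for the comparison with LPS with 9 libraries, was kept there at -0.20 without LPS 2, and was kept for that with control. In liver the same gene did not pass the test in this comparison and stood higher in every LPS+MIC-1 library.

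All 3 electron transfer genes fell with 9 libraries, Etfa (-0.37), Etfb (-0.60) and Etfdh (-0.54), and turned to 0.42, 0.21 and 0.11 with FPKM scaled to the same sum and LPS 2 left out. Etfb had 84.2, 84.5 and 78.7 FPKM in controls, 80.9, 84.0 and 83.3 after LPS alone and 51.8, 59.2 and 52.7 with LPS+MIC-1, so that LPS 2 stood near the other LPS libraries in this gene. Etfa had 66.7 to 68.9 FPKM after LPS alone and 49.9, 56.2 and 50.4 with LPS+MIC-1; with FPKM scaled to the same sum and 9 libraries its difference turned to 0.12. The dehydrogenases Acads (-0.63) and Acadvl (-0.54), Acat1 (-0.70) and Acsl1 (-0.52) fell as well, and without LPS 2 the same sum turned them to 0.09, 0.11, 0.29 and 0.20. Acat1 had 39.1, 34.0 and 37.6 FPKM in controls, 22.7, 33.5 and 20.8 after LPS alone and 14.0, 16.5 and 15.5 with LPS+MIC-1. Without LPS 2, Acadl (-1.04), Crat (-0.39) and Echs1 (-0.50) fell in addition, and with the same sum they were at -0.24, 0.38 and 0.30.

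The 3 genes that rose were Acot2, Pex11a and Crot. Acot2 had 7.09, 7.99 and 7.14 FPKM in controls, 2.70, 7.74 and 3.33 after LPS alone and 12.3, 14.6 and 12.1 with LPS+MIC-1, a Log2FC of 1.53 ± 0.32 with 9 libraries and of 1.95 with 8. Every LPS+MIC-1 library was above every other library, including LPS 2. Pex11a had 1.07, 2.77 and 2.76 FPKM in controls, 1.35, 0.917 and 0.826 after LPS alone and 3.60, 3.54 and 3.82 with LPS+MIC-1 (Log2FC 1.45). Crot rose by 0.52, from 6.44 to 6.94 FPKM with LPS to 10.6, 8.66 and 10.2. Acot2 and Pex11a also rose with FPKM scaled to the same sum, with Log2FC of 1.95 and 1.80, and all 3 rose with the same sum and LPS 2 left out (2.63, 1.95 and 1.25 for Acot2, Pex11a and Crot). Without LPS 2, Bdh1 (0.51), Cpt2 (0.97) and Hsd17b4 (0.30) rose in addition; Cpt2 had 9.44, 8.95 and 10.6 FPKM with LPS+MIC-1, between the controls and LPS 1 and LPS 3.

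**Figure D5:**
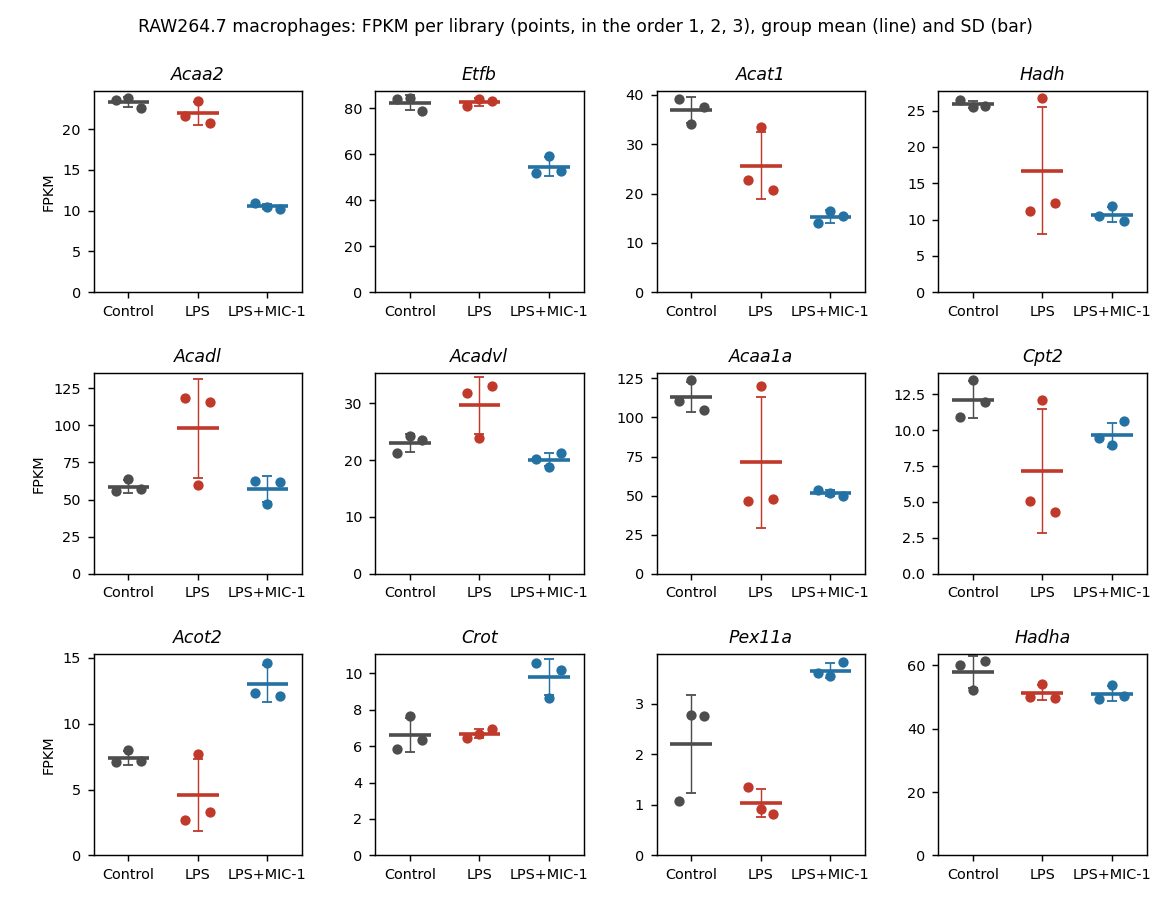
FPKM of 12 genes in the 9 macrophage libraries (y axis from 0, points in the order of libraries 1, 2 and 3 within each group on the x axis), with the group mean as a line and the SD as a bar. As deposited, Acaa2 and Etfb are lower and Acot2 and Crot higher in all 3 LPS+MIC-1 libraries than in every other library. Etfb against LPS turned to 0.21, below the median of all genes, with FPKM scaled to the same sum and LPS 2 left out. The middle LPS point, LPS 2, lies with the controls for Hadh, Acadl, Acaa1a and Cpt2.

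Against the controls, which also served the comparison with LPS, the macrophages with LPS+MIC-1 had 1 of the 29 genes higher (11.8% of all genes) and 12 lower (13.0%), with a median Log2FC of -0.34 against -0.04. LPS 2 enters this comparison only through the shared estimate of the spread: without it 5 genes rose (28.1%) and 17 fell (32.2%) at the same Log2FC. The libraries of both groups did not overlap for 6 genes higher and 18 lower (31.4% and 34.9% of all genes). The 12 genes were Acat1 (-1.24), Hadh (-1.24), Acaa1b (-1.15), Acaa1a (-1.12), Acaa2 (-1.11), Hadhb (-0.85), Acadm (-0.78), Etfb (-0.59), Acsl5 (-0.57), Etfa (-0.55), Acads (-0.37) and Acsl1 (-0.34). Hadh had 26.4, 25.6 and 25.6 FPKM in controls and 10.5, 11.8 and 9.79 with LPS+MIC-1 (limma adjusted p = 0.0199). Acaa1a had 53.4, 51.6 and 50.1 FPKM with LPS+MIC-1 against at least 105 in the controls. Crot rose by 0.54. With FPKM scaled to the same sum, 0 rose and 2 fell, Acaa2 and Acat1, at a median of all genes of -0.21. With the same sum and LPS 2 left out, 4 rose and 20 fell, all 13 calls were kept, 2019 of all genes rose and 4223 fell, and the median was -0.53 against -0.21. Of the 13 calls, 4 were left without control 1, control 3 or LPS+MIC-1 library 1 or 3, 6 without control 2 and 8 without LPS+MIC-1 library 2. Calls over all genes in these fits are not set beside these either. The stricter rule left 0 higher (3.27% of all genes) and 2 lower (2.32%).

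Of 31 further pathway genes tested in macrophages 3 rose and 3 fell with LPS+MIC-1 against LPS (9 libraries, 10.2% and 11.4% of all genes, median -0.08). Acsl4 (1.28), an acyl-CoA synthetase for arachidonic acid, Slc27a4 (1.65) and Nudt7 (1.24) rose, and Ech1 (-0.82), a dienoyl-CoA isomerase, Oxct1 (-0.67), which lets cells use ketone bodies, and Scp2 (-0.45), a peroxisomal thiolase and lipid carrier, fell. Against control 6 rose and 7 fell (11.8% and 13.0% of all genes), again with Acsl4 (1.27) and Slc27a4 (1.01) up, and with Oxct1 (-0.94), Ech1 (-0.67) and Scp2 (-0.59) down. Of 21 further regulators, beside the same shares of all genes, 0 rose and 3 fell against LPS, Txnip (-1.44), Ucp2 (-0.75) and Ppargc1b (-0.54); against control 3 rose, Ppard (2.21), Fabp4 (2.82) and Cd36 (1.51), and 3 fell, Ucp2 (-0.95), Txnip (-0.89) and Retsat (-1.91). With LPS against control 0 genes of both lists passed with 9 libraries, with 15 of 31 and 12 of 21 at an unadjusted p below 0.05 in limma. Values of both lists are at the deposited scaling, and the same sum with LPS 2 left out moved the median of all genes to 0.74 against LPS.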

How the data were processed

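RNA of 9 liver libraries and 9 RAW264.7 libraries was sequenced at BGI. Per the study's methods, the authors quantified reads by pseudoalignment with kallisto 0.45.0 to RefSeq transcripts of mm9, summed them to genes with tximport, and made the deposited FPKM values with DESeq2 1.20.0, which scales by size factors, so that FPKM sums differ between libraries. The deposited tables of the authors' own comparisons hold a mean normalized count, log2 fold change, standard error, score, p-value and adjusted p-value, and were not used. Deposited columns carry the group and no replicate number. The study describes fewer macrophage LPS libraries in its own analysis than were deposited, and which was left out is not given in the sources used here.

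All genes whose FPKM averaged above 1 across a table's 9 libraries were fitted with limma 3.58.1 in R 4.3.3 (lmFit, contrasts, eBayes with trend) on log2(FPKM + 0.5), with the 3 groups in 1 fit and Benjamini-Hochberg adjustment over all tested genes. A call needed an adjusted p below 0.05 and no minimum fold. Confidence intervals are 95% and come from the same fit. Depth was estimated from steps between low FPKM values; 84.8% to 90.8% of the low values were within 0.1 of a whole read, which gives estimates and not counts, so no count test was run. In simulated liver data (LPS against control, 10147 genes) the fit recovered 66% of 200 genes changed 4-fold and 5% of 200 genes changed 2-fold; in simulated macrophage data (9905 genes) it recovered 78.5% and 44%.

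The genes and lists were chosen with earlier results of these data known. All 40 genes could be named; of the other lists, the 3 genes with the smallest p in each direction among those called were named. Marker lists are given by the range of their sums and by counts, and of their genes Cd14, S100a8 and Cxcr2 are named. Of the LPS response genes Ccl5 and Cxcl10 are named. Some genes of these lists are counted and not reported here by name. Alternatives changed the pseudocount, filter, scaling, variance model, call rule and libraries in the fit. After the data were seen, averaging of close libraries, removal of transcript length and GC trends, and scaling of macrophage FPKM to the same sum without LPS 2 were added.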

Additional observations from a re-analysis of the deposited data

Results flagged for a closer look

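For several genes every treated library lay on one side of the controls (or of LPS) in liver and on the other side in macrophages. The difference between the tissues was not tested for any of them, and the tables were scaled separately. Of all genes 30.5% lay above and 24.1% below the controls with LPS+MIC-1 in liver, and 31.4% and 34.9% in macrophages. For LPS against control the shares were 24.2% and 20.8%, and 16.1% and 17.2%. For LPS+MIC-1 against LPS they were 5.10% and 4.64%, and 17.9% and 18.2%. The share of all genes on opposite sides was not counted, so the list is no result about these genes alone. Values are Log2FC with all libraries, liver first.

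With LPS against control, Hadhb was at 1.30 in liver and -0.74 in macrophages. With LPS+MIC-1 against LPS, Acaa2 was at 0.36 and -1.02, Acadvl at 0.27 and -0.54, and Acat1 at 0.60 and -0.70. Hadhb passed the test in liver and not in macrophages with all 9 libraries. None of the liver values of LPS+MIC-1 against LPS passed the test. The macrophage values of Acadvl and Acat1 turned to 0.11 and 0.29 with FPKM scaled to the same sum and LPS 2 left out. Both were below the median of all genes in that setting.

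With LPS+MIC-1 against control, the thiolases Acaa1a (2.12 and -1.12), Acaa2 (1.23 and -1.11) and Acat1 (0.97 and -1.24) passed the test in both tissues with opposite signs. So did Acads (1.86 and -0.37) and Hadhb (1.55 and -0.85). Acadvl (1.32 and -0.19), Cpt1a (1.28 and -0.91), Cpt2 (0.63 and -0.31) and Etfdh (1.57 and -0.24) passed in liver and not in macrophages with all 9 libraries. The liver value of Cpt2 turned to -0.02 with FPKM scaled to the same sum. Acadm (0.37 and -0.78) and Etfb (0.33 and -0.59) passed in macrophages and not in liver. Acot2 (-2.16 and 0.77) and Decr2 (-1.13 and 0.40) had the reverse order, lower in liver and higher in macrophages, and passed in liver.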

How the results depend on the processing

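No paired analysis was possible because the columns carry no replicate numbers. Median-of-ratios scaling, robust variances and a pseudocount of 1 kept all 61 calls of the 40 genes, and fits without the variance trend kept 59. With FPKM scaled to the same sum, Cpt2 and Hadha in liver (LPS+MIC-1 against control) turned to Log2FC of -0.017 and -0.0176, and Etfa in macrophages (LPS+MIC-1 against LPS) to 0.12. There 8 genes rose in liver with LPS+MIC-1 against control, 0 fell in macrophages with LPS+MIC-1 against LPS, and 0 rose and 2 fell there against control. With the same sum and macrophage LPS 2 left out together, chosen after seeing the data, 28 fell with LPS, 24 rose and 1 fell with LPS+MIC-1 against LPS, and 4 rose and 20 fell against control. Against LPS, Acads turned to 0.0879, Acadvl to 0.108, Acat1 to 0.288, Acsl1 to 0.196, Etfa to 0.421, Etfb to 0.210 and Etfdh to 0.114. All of these were below the median of all genes there. With an adjusted p below 0.01 and an absolute Log2FC above 1, 4 rose and 2 fell in liver with LPS, 6 and 2 with LPS+MIC-1 against control, 0 and 1 in macrophages with LPS+MIC-1 against LPS and 0 and 2 against control; with an unadjusted p below 0.05 and the same fold, 1 fell in macrophages against LPS, and 0 rose and 6 fell against control. With libraries 1 and 3 of each group averaged, the counts in that order were 1 and 0, 7 and 2, 0 and 0, and 0 and 0. With those of the LPS and LPS+MIC-1 groups averaged they were 1 and 2, 7 and 3, 0 and 1, and 0 and 2. These fits hold fewer libraries, and averaging in each group joins liver controls 1 and 3, which were not a close pair. In macrophages, fits of only the groups compared gave 1 and 1 against LPS and 5 higher against control; a pseudocount of 0.1, a mean FPKM above 5 and removal of length and GC trends each gave 2 higher against control. The cause was not tested. With single libraries left out, 5 to 16 rose and 2 to 7 fell in liver with LPS, 0 and 0 with LPS+MIC-1 against LPS, and 7 to 15 and 4 to 7 against control; in macrophages 0 to 8 and 0 to 12 with LPS, 0 to 6 and 3 to 11 with LPS+MIC-1 against LPS, and 0 to 5 and 4 to 17 against control. Counts over all genes are not set beside these ranges, which are therefore no result about these genes alone. Liver controls 2 and 3 had the fewest reads, which limits low genes such as Fgf21, Acot8 and Pex11a.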
